A study of Mus musculus with 12 samples.

Results

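Imprinted genes are expressed mainly from the copy inherited from 1 parent, and 37 of them were followed in E14 mouse embryonic stem cells in which Setdb1 was depleted. The members were a list of named genes, taken by name, but chosen with earlier results of these data known. Of the 37, 36 had a row among the 26061 genes of the deposited gene table, and 32 were among the 14487 genes with enough reads to be tested. The antisense RNA Kcnq1ot1 was not analysed here, and Rasgrf1, Kcnq1, Dlk1 and Magel2 were listed with too few reads to test. Of the 37, 20 are known as paternally expressed (16 tested), 15 as maternally expressed (14 tested), and for Gnas and Inpp5f the expressed copy depends on the transcript. They lie at 18 loci, of which the Kcnq1ot1 domain holds 8 members, the Snrpn domain 6, the Dlk1-Meg3 domain 4, the Peg3 domain 3, and the H19-Igf2 and Peg10 domains 2 each.

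There were 4 groups of 3 libraries, all from the E14 line of 129/Ola background grown on gelatin with no feeder cells. The 2i shSetdb1 group carried a lentiviral pLKO.1 shRNA against Setdb1 and grew in 2i medium, which the submitters call naive. This medium contains CHIR99021, which inhibits GSK3, and PD0325901, which inhibits MEK, in a base with N2, B27 and LIF. The 2i shScr group carried a scrambled shRNA in that medium. The serum shSetdb1 and serum shScr groups carried the same shRNAs in medium with 15% fetal bovine serum and 1000 U/ml LIF, called primed by the submitters. All cells, controls included, were transduced, put under 1 µg/ml puromycin 48 hours later and collected after 3 days of selection. Ribosomal-RNA-depleted, directional libraries were sequenced. All 4 groups come from 1 cell line, and no group held another Setdb1 shRNA or a rescue, so effects of Setdb1 loss and other effects of this shRNA cannot be told apart. The labels do not say that replicates were separate cultures, so each p-value rests on the variation among these libraries alone, and part of it may be technical.

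Genomic imprints are set in the germline as DNA methylation on 1 parental copy of an imprinting control region. After fertilisation and in embryonic stem cells, the zinc finger protein ZFP57 binds the methylated copy and brings TRIM28, which recruits SETDB1. SETDB1 is a methyltransferase that places H3K9 methylation there, and DNA methyltransferases keep the DNA methylation through replication. Control regions act on neighbours in cis, for instance through long non-coding RNAs such as Kcnq1ot1 or through an insulator as at H19 and Igf2. Most control regions of the members carry methylation on the maternal copy (29 members), 7 members belong to regions methylated on the paternal copy, and Slc38a4 is imprinted without methylation from the germline. Reads were counted per gene in cells of an inbred background, so the values carry no parental origin. A higher or lower level here does not show which copy gave it. The RNA is also from bulk cells, where fewer cells expressing a gene and less RNA per cell cannot be told apart.

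Promoter windows are shown for Usp29, Phlda2 and Plagl1, which with Cdkn1c are the members that passed in the main fit below. The main fit has 1 mean per group over all 12 libraries. Nap1l5 is shown as a window with 2 copies of the letters that ZFP57 is known to recognise. Each is 300 bases, 250 before and 50 after the start of the gene, read from RefSeq on GRCm38.p6 and written 5′ to 3′ along the gene. Capitals mark TGCCGC or its reverse complement GCGGCA, searched on both strands, and all other bases are in lower case.
Usp29, chr7:6730333-6730632, + strand: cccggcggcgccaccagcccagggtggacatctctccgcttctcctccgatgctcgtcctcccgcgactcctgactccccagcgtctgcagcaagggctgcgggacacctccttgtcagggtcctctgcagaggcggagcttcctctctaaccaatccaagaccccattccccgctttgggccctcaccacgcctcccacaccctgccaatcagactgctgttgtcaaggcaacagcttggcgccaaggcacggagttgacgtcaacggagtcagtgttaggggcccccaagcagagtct
Phlda2, chr7:143502475-143502774, - strand: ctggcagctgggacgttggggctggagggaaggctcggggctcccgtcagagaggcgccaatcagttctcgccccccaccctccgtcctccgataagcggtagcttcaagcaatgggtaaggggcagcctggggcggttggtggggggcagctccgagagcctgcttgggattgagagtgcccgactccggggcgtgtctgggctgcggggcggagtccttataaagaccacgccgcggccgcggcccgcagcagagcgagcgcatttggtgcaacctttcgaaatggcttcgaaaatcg
Plagl1, chr10:13090582-13090881, + strand: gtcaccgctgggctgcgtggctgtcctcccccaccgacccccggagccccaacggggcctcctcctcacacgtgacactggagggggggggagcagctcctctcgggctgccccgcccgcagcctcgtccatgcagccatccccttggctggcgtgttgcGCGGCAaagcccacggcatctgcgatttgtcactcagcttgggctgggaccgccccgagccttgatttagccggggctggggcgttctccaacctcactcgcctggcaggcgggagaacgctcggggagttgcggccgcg
Nap1l5, chr6:58907077-58907376, - strand: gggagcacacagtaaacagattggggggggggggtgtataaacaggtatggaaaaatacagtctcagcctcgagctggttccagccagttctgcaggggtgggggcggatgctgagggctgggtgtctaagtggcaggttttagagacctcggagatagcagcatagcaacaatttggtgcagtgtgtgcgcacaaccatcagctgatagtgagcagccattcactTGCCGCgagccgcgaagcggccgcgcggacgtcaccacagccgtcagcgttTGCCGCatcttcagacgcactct
The Usp29 window shares 263 bases with that of Peg3, which starts on the opposite strand. Neither the Usp29 nor the Phlda2 window holds the letters, the Plagl1 window holds 1 copy and the Nap1l5 window 2. Of the 31 members with a window in the table, 9 had the letters in at least 1 window (29.0%), as had 13.1% of the 27025 genes with a window. Genes with several starts have several windows, and 10 of the 46 windows of members held the letters (21.7%), against 11.6% of all 32851 windows. Windows can overlap, as do those of Mest that start at 30737800 and 30737803 on chr6, so the same letters can count more than once. The base composition of member windows was not compared with that of all windows. A match describes the letters only, and imprinting control regions often lie outside these windows.

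The libraries held 4821181 to 15509401 gene reads, the fewest in 2i shSetdb1 replicate 3, and the 36 listed members took 0.127 to 0.301% of them. Structural RNA families took 15.3 to 69.3% of repeat reads, with the highest share in replicate 3 of each group, so libraries of 1 group differed in composition. Setdb1 had 837, 610 and 340 normalised reads, which are read counts over the size factor of their library, in 2i shSetdb1 and 3607, 2724 and 2253 in 2i shScr, a 4.80-fold lower mean. It had 418, 379 and 409 in serum shSetdb1 and 2959, 2237 and 1587 in serum shScr, 5.62-fold lower. Both falls passed (limma adjusted p = 0.00173 in 2i and 0.00219 in serum). All 10 pluripotent stem cell markers checked had reads in 11 of the 12 libraries. No read fell on Elf5 (trophoblast), Fap (fibroblast), or Mesp1 and Foxf1a (mesoderm) in any library.

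With the Setdb1 shRNA, 1 imprinted gene changed in serum and none passed the same test in 2i. Usp29, a ubiquitin-specific peptidase gene of the Peg3 domain expressed from the paternal copy, rose 10.5-fold in serum, and it also rose in the mean of both media. In serum, 1 of 32 members passed, beside 0.649% of all genes tested, and in the mean of both media 1 of 32, beside 1.89%. The threshold was an adjusted p under 0.05 (Benjamini-Hochberg) over all genes tested. In 2i, 0 of 32 members passed with limma, beside 1.27% of all genes. There 2 members (6.25%), Usp29 and Igf2, had an unadjusted p under 0.05, beside 7.37% of all genes, and 0 passed with voom. The change was not shown to differ between media for any gene: 0 of 14487 genes and 0 members passed for the difference of the changes (0%). At an unadjusted p under 0.05 the count was 404 genes (2.79%) and 0 members, and voom called 0 members.

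**Figure D1:**
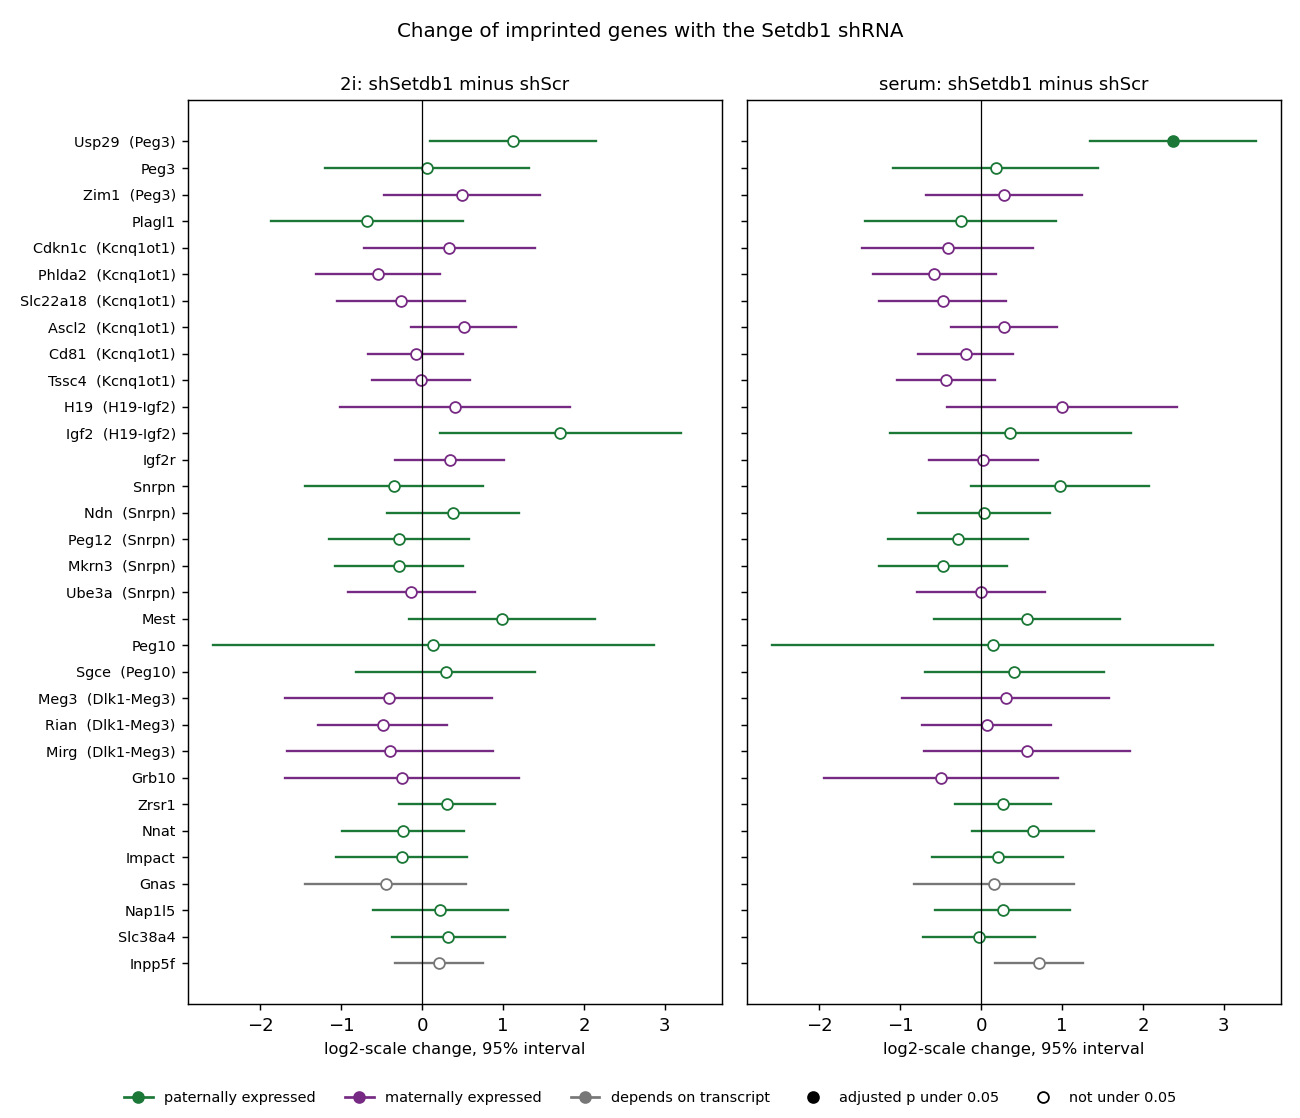
Change of each of the 32 tested members with the Setdb1 shRNA, 2i on the left and serum on the right. The x axis is the difference of group means (shSetdb1 minus shScr) on the deposited log2 scale with its 95% interval, the y axis lists members with their domain in brackets, and filled points have an adjusted p under 0.05. Usp29 in serum, at 2.38, is the only filled point.

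Usp29 had 56.9, 75.1 and 202 normalised reads in 2i shSetdb1, against 8.67, 19.3 and 77.5 in 2i shScr. In serum it had 151, 283 and 374 in serum shSetdb1, against 5.43, 26.6 and 44.9 in serum shScr. In serum every knockdown library was above every control library, while in 2i the lowest and middle knockdown libraries were below the highest control library. The serum means were 269 ± 112 with the Setdb1 shRNA and 25.7 ± 19.8 in serum shScr (SD, n = 3 each), a log2-scale change of 2.38 (SE 0.48, limma adjusted p = 0.0329). The labels state no pairing, but serum libraries of the same replicate number varied alike, for a reason not tested. With the replicate number as a block within medium, the limma adjusted p of Usp29 in serum was 0.000241, and 1 of 32 members passed beside 1.46% of all genes. The 2i means were 111 ± 79.0 with the Setdb1 shRNA and 35.2 ± 37.03 in 2i shScr (SD, n = 3 each), 3.17-fold higher, with a log2-scale change of 1.12 (SE 0.48, limma adjusted p = 0.583). That fold was 1.88 without 2i shSetdb1 replicate 3 and 7.96 without 2i shScr replicate 3. The mean of both changes was 1.75 (SE 0.34, limma adjusted p = 0.0101), and it stayed past the threshold in 22 of 22 alternatives, with an adjusted p of 5.65e-05 to 0.0365. The difference, 2i minus serum, was -1.25 (SE 0.68, 95% interval -2.70 to 0.20, limma adjusted p = 1.00).

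In serum the Usp29 call rested on nearly all libraries. The limma adjusted p was 0.234, 0.1003 and 0.0513 without serum shScr replicate 1, 2 or 3, and 0.175 and 0.152 without serum shSetdb1 replicate 2 or 3. It was 0.0659 with no filter on low values, 0.0899 on log2 of reads plus 1, 0.103 with voom and 0.0576 with the serum libraries alone. Over all 17 alternatives it ranged from 0.00024 to 0.234, with 8 passing. The fold was 7.53 to 16.8 with 1 library left out, the highest without serum shScr replicate 3. In each of the 4 groups replicate 3 had the most normalised Usp29 reads and replicate 1 the fewest, while the reads themselves were 74, 74 and 73 in 2i shSetdb1. Structural RNA took 19.8, 55.3 and 69.3% of repeat reads in 2i shSetdb1 replicates 1 to 3, 31.8, 38.7 and 64.3% in 2i shScr, 16.0, 15.3 and 42.4% in serum shSetdb1 and 24.0, 29.7 and 48.0% in serum shScr. The part of that composition in the Usp29 values was not tested. Of the 10 pluripotent stem cell markers, 8 in 2i and 9 in serum had a negative knockdown change, with medians of -0.22 in 2i and -0.72 in serum. None of the 10 passed with limma or voom in either medium, while 2 in 2i and 6 in serum had an unadjusted p under 0.05, beside 7.37 and 5.09% of all genes. Their part in the Usp29 values was not tested.

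Peg3, a zinc finger gene that shares its promoter region with Usp29 and is also expressed from the paternal copy, did not pass in either medium. Peg3 had 1370, 332 and 257 normalised reads in 2i shSetdb1, against 415, 921 and 272 in 2i shScr. It had 1610, 1583 and 450 in serum shSetdb1 and 1210, 1116 and 585 in serum shScr. The groups overlapped in both media, with log2-scale changes of 0.06 (SE 0.59) in 2i and 0.18 (SE 0.59) in serum and a limma adjusted p of 0.992 in 2i and 1.00 in serum. Per 100 Peg3 reads there were 4.15, 22.6 and 78.5 Usp29 reads in 2i shSetdb1 and 2.09, 2.10 and 28.5 in 2i shScr. The values were 9.40, 17.9 and 83.2 in serum shSetdb1 and 0.448, 2.39 and 7.68 in serum shScr, where the groups did not overlap. These ratios are not scaled for transcript length, and since the use of strand in counting is not given in the sources used here, reads near the shared start could have been given to either gene. Zim1, the maternally expressed zinc finger gene of the domain, had 6.92, 0 and 22.1 normalised reads in 2i shSetdb1 and 0, 5.52 and 0 in 2i shScr. In serum it had 18.2, 7.58 and 0 in shSetdb1 libraries and 0, 17.8 and 0 in shScr libraries. Reads of Zim1 were too few to rank the groups.

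**Figure D2:**
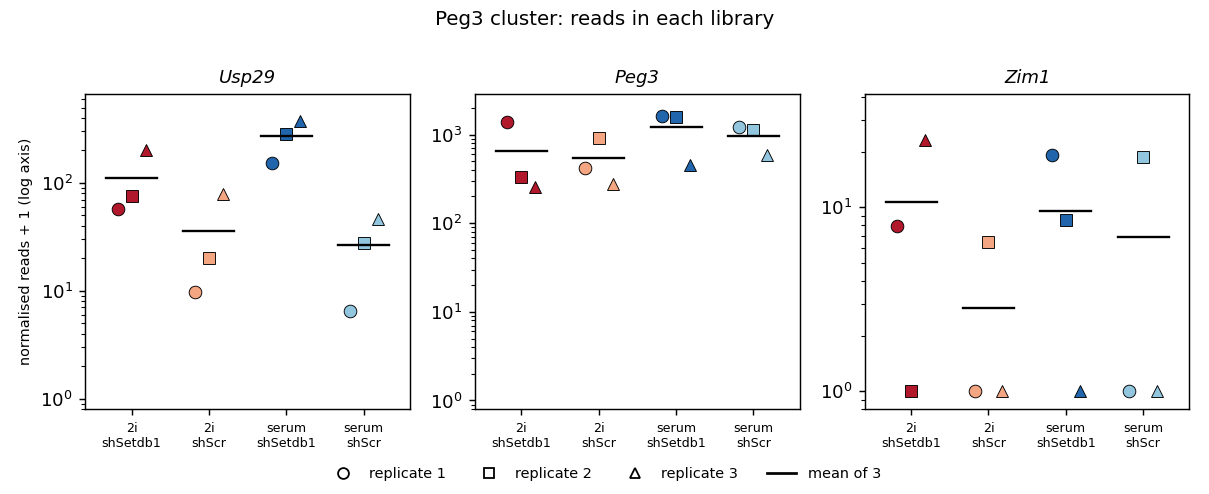
Normalised reads plus 1 (log axis) of the 3 members of the Peg3 domain in each of the 12 libraries, with 1 marker shape per replicate number and a line at the mean of 3. Usp29 is at 151 to 374 reads in serum shSetdb1 and at 5.43 to 44.9 in serum shScr, whereas the Peg3 groups overlap.

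No other member passed with the knockdown in serum, where 7 of 32 had groups that did not overlap, beside 9.71% of all genes (6.12% higher and 3.59% lower). Higher in all shSetdb1 libraries were Usp29, H19, Nnat, Ascl2 and Inpp5f, and lower in all were Phlda2 and Tssc4. H19, the maternally expressed long non-coding RNA, had 138, 214 and 224 normalised reads in serum shSetdb1 and 69.5, 111 and 53.5 in serum shScr, a 2.46-fold higher mean (log2-scale change 1.00, SE 0.67, limma adjusted p = 1.00). Igf2, the growth factor on the other side of their shared control region, had 73.8, 53.9 and 78.6 in serum shSetdb1 and 45.6, 55.1 and 37.4 in serum shScr. These Igf2 groups overlapped, and the change was 0.36 (SE 0.70). Inpp5f, an inositol phosphatase gene with 1 paternally expressed variant, had 871, 766 and 788 in serum shSetdb1 against 578, 500 and 369 in serum shScr. Its means differed 1.68-fold, by 0.72 on the log2 scale (SE 0.26, limma adjusted p = 0.577), which was the member with the second smallest p. The counts are per gene and do not separate the Inpp5f variants. Snrpn, a spliceosomal protein gene, had 1010, 2028 and 638 in serum shSetdb1 and 620, 824 and 295 in serum shScr, a change of 0.98 (SE 0.52, limma adjusted p = 1.00) with overlapping groups. Nnat, which encodes the membrane protein neuronatin, had 15.2, 22.7 and 16.3 in serum shSetdb1 against 6.51, 13.3 and 0 in serum shScr, few reads in either group.

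The members with the most negative changes in serum were mostly ones known as maternally expressed. Phlda2, which limits placental growth, had 89.0, 172 and 165 normalised reads in serum shSetdb1 and 186, 317 and 188 in serum shScr, 1.62-fold lower (log2-scale change -0.58, SE 0.36, limma adjusted p = 1.00). Grb10, an adaptor that restrains insulin receptor signalling, had 1135, 1747 and 1282 in serum shSetdb1 and 2330, 1322 and 2382 in serum shScr, with overlap and a change of -0.50 (SE 0.68). Slc22a18, a transporter-like gene of the Kcnq1ot1 domain, had 2.28, 0 and 6.71 in serum shSetdb1 against 19.5, 3.55 and 6.42 in serum shScr. Tssc4, an snRNP assembly factor imprinted in placenta, had 95.8, 104 and 92.04 in serum shSetdb1 against 130, 190 and 121 in serum shScr, a change of -0.43 (SE 0.28). The 1 paternally expressed gene among these 5 was Mkrn3, a RING finger gene of the Snrpn domain, with 40.3, 89.3 and 121 in serum shSetdb1 against 143, 116 and 108 in serum shScr. Each of Phlda2, Grb10, Slc22a18, Tssc4 and Mkrn3 had a limma adjusted p of 1.00 in serum.

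In 2i the largest change was that of Igf2, and it rested on 1 library. Igf2 had 434, 9.14 and 5.53 normalised reads in 2i shSetdb1, against 10.1, 0 and 0 in 2i shScr. Replicate 1 of the knockdown was 43.0 times the next 2i library, while the other knockdown libraries lay below 2i shScr replicate 1. The log2-scale change of 1.71 (SE 0.70, limma adjusted p = 0.540) became 0.50 (SE 0.38, adjusted p = 0.513) without that library. H19 had 171, 0 and 0 in 2i shSetdb1 and 18.8, 6.21 and 0 in 2i shScr, and its change turned to -0.68 (SE 0.41) without replicate 1, against 0.41 (SE 0.67) with it. Peg10, a retrotransposon-derived gene needed in the placenta, had 2464, 15.2 and 0 in 2i shSetdb1 and 160, 221 and 7.04 in 2i shScr. Its change was 0.14 (SE 1.28) and became -1.95 (SE 0.77) without replicate 1. Of the 32 members, 6 turned sign in 2i without that library, which were Peg10, H19, Peg3, Cdkn1c, Sgce and Peg12. Sgce, its neighbour, had 54.6, 9.14 and 0 in 2i shSetdb1 against 16.6, 8.97 and 0 in 2i shScr. Mest, a hydrolase-fold protein gene of mesoderm, had 514, 178 and 102 in 2i shSetdb1 against 49.1, 248 and 49.3 in 2i shScr, a change of 0.99 (SE 0.54, limma adjusted p = 0.776). Replicate 1 of 2i shSetdb1 was the highest of the 6 libraries in 2i for 11 members, more than any other 2i library, the next being 2i shScr replicate 2 with 7. Neither this count nor that of turned signs was made over all genes, so neither shows a trait of the members.

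That library also stood apart in some markers of other cell types, but not in others of the same lists. Krt8, an epithelial keratin also made by trophoblast, had 427, 33.5 and 2.77 normalised reads in 2i shSetdb1 and 119, 61.4 and 55.2 in 2i shScr, and Krt18 had 652, 90.4 and 19.4 in 2i shSetdb1 against 40.4, 40.0 and 19.9 in 2i shScr. The trophoblast markers Eomes, Tcfap2c and Cdx2 were not highest there. Eomes had 19.2, 72.1 and 0 in 2i shSetdb1 against 31.1, 84.8 and 62.2 in 2i shScr. Tcfap2c had 400, 495 and 758 in 2i shSetdb1 against 290, 537 and 689 in 2i shScr. Gata3, also on the trophoblast list, was highest there at low counts, with 8.46, 0 and 0 in 2i shSetdb1 against 1.44, 3.45 and 0 in 2i shScr. The endocytic adaptor gene Dab2, of the primitive endoderm list, had 47.7, 0 and 0 in 2i shSetdb1 against 0, 4.83 and 0 in 2i shScr. At low counts, Gata6 of that list had 19.2, 0 and 0 in 2i shSetdb1 against 0, 1.38 and 9.39 in 2i shScr. Gata4 had 8.46, 0 and 0 in 2i shSetdb1 against 4.33, 2.07 and 0 in 2i shScr. Sox17 and Foxa2, at 4.61 and 1.54 in replicate 1 of 2i shSetdb1, were also highest there. Of that list Lama1, Pdgfra and Sox7 were not. Lama1 had 1345 in replicate 1 of 2i shSetdb1 against 1122, 1565 and 1430 in 2i shScr. The 8 trophoblast markers summed to 691 to 1519 reads in 2i shSetdb1 and 495 to 840 in 2i shScr, with Elf5 at 0. The 8 primitive endoderm markers summed to 448 to 1458 in 2i shSetdb1 and 1151 to 1613 in 2i shScr, and these sums were mostly Lama1. In 2i shSetdb1 replicates 1 to 3, 7, 2 and 2 of the 8 had a read, and in 2i shScr 4, 6 and 3. The 12 fibroblast markers summed to 168 to 839 in 2i shSetdb1 and 24.6 to 51.7 in 2i shScr, with Fap at 0. Most of the 2i shSetdb1 sum was Lum, a matrix proteoglycan gene, with 736, 102 and 542 in 2i shSetdb1 against 0, 2.76 and 0 in 2i shScr, high in replicates 1 and 3 alike. Lum had 6.85, 5.05 and 2.88 in serum shSetdb1 and 0 in each serum shScr library. Col6a3 had 44.6, 41.6 and 41.5 in 2i shSetdb1 against 0, 4.14 and 0 in 2i shScr. Of the 4 fibroblast markers tested, 2 passed with limma in 2i, both higher, beside 1.27% of all genes in either direction. The other 2 had negative changes. The part of any other cell type in the values of Igf2, H19, Peg10 or Mest was not tested.

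**Figure D3:**
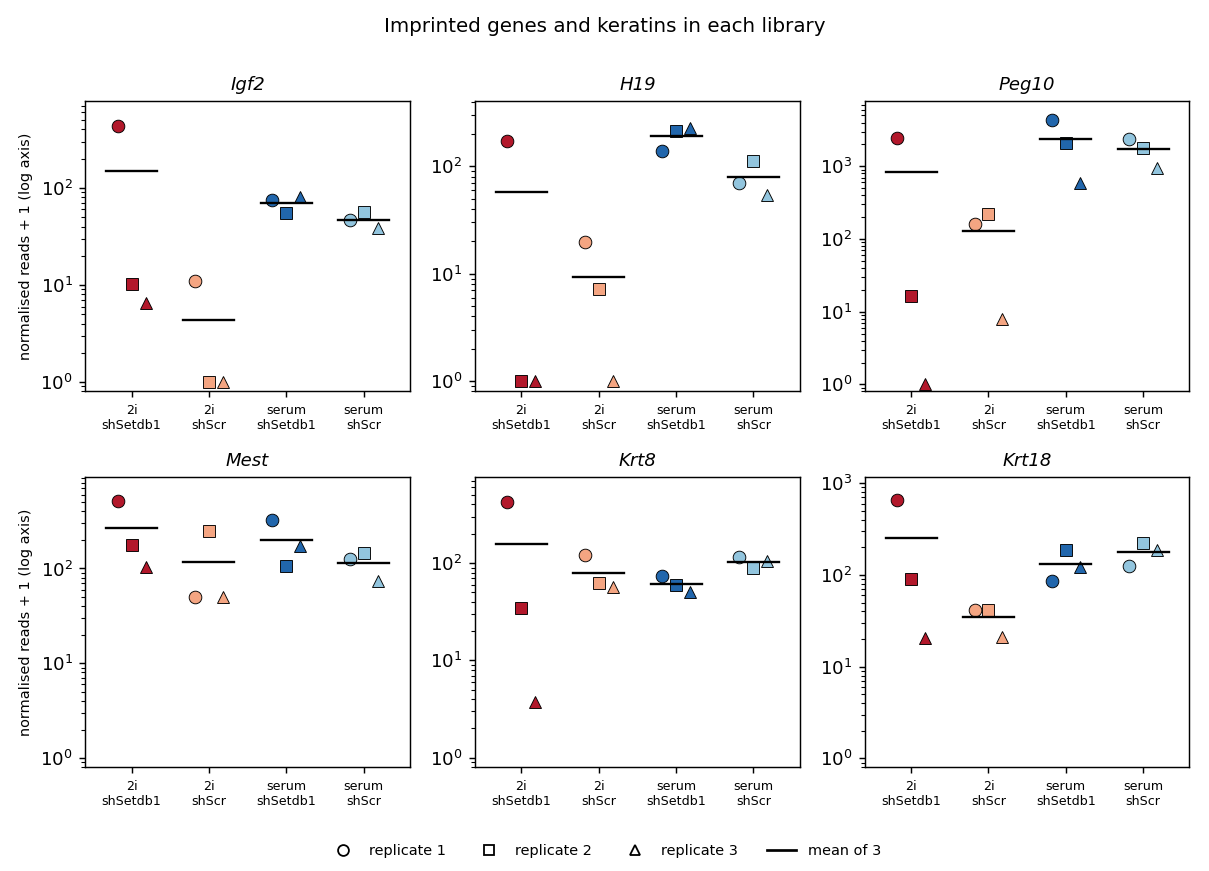
Normalised reads plus 1 (log axis) of Igf2, H19, Peg10 and Mest with the keratins Krt8 and Krt18 in each of the 12 libraries, 1 marker shape per replicate number, lines at the mean of 3. Replicate 1 of 2i shSetdb1 (circle, far left) is the highest 2i library in all 6 panels, at 434 reads for Igf2 where the next 2i library has 10.1.

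Among other members in 2i, 1 of 32 had groups that did not overlap, Phlda2, beside 10.7% of all genes. Phlda2 had 20.8, 15.2 and 27.7 normalised reads in 2i shSetdb1 and 88.8, 28.3 and 29.3 in 2i shScr, 2.30-fold lower with a log2-scale change of -0.55 (SE 0.36, limma adjusted p = 0.831). Without 2i shScr replicate 1 that change was -0.22, and the limma adjusted p lay between 0.446 and 1.00 over its alternatives. Plagl1, a zinc finger factor that restrains proliferation, had 89.2, 92.4 and 66.4 in 2i shSetdb1 and 22.4, 428 and 230 in 2i shScr, a change of -0.68 (SE 0.56). The 2i shScr libraries of Plagl1 surrounded the knockdown libraries. Gnas, the stimulatory G protein locus, had 865, 275 and 196 in 2i shSetdb1 against 898, 504 and 297 in 2i shScr, a change of -0.45 (SE 0.47). Ascl2, a transcription factor of trophoblast progenitors, had 17.7, 2.03 and 8.30 in 2i shSetdb1 against 2.89, 2.76 and 0 in 2i shScr. At these low counts its change of 0.51 (SE 0.31) had a limma adjusted p of 0.819.

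At the Dlk1-Meg3 domain, the maternally expressed non-coding RNAs Meg3, Rian and Mirg kept overlapping groups in both media. Meg3 had 229, 334 and 36.0 normalised reads in 2i shSetdb1 and 195, 342 and 153 in 2i shScr, and 464, 948 and 131 in serum shSetdb1 against 353, 295 and 303 in serum shScr. In 2i its change of -0.41 (SE 0.60) became 0.30 without 2i shSetdb1 replicate 3, the shallowest library. Rian, host of small nucleolar RNAs, had 3375, 6240 and 3736 in 2i shSetdb1 and 4425, 5445 and 9083 in 2i shScr, and 6880, 7653 and 4206 in serum shSetdb1 against 7104, 6466 and 4169 in serum shScr. The changes of Rian were -0.49 (SE 0.37) in 2i and 0.07 (SE 0.37) in serum. Mirg, host of microRNAs, had 122, 187 and 30.4 in 2i shSetdb1 and 149, 206 and 81.0 in 2i shScr, and 324, 473 and 64.2 in serum shSetdb1 against 244, 182 and 54.5 in serum shScr. Dlk1, the paternally expressed protein-coding gene of the domain, had 0 reads in 2i libraries of both shRNAs, 4 in serum shSetdb1 and 8 in serum shScr.

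Members known as paternally expressed had a higher median knockdown change than those known as maternally expressed in both media, by little. These classes rest in some cases on other tissues, placenta for Tssc4 and Cd81 and neurons for Ube3a. Which copy was expressed in these cells was not measured. In 2i the median log2-scale change was 0.18 over 16 paternally and -0.11 over 14 maternally expressed members, with 10 and 5 positive. Without 2i shSetdb1 replicate 1 the 2i medians were 0.01 over paternally and -0.37 over maternally expressed members, with 8 and 3 positive. In serum it was 0.24 over paternally and 0.01 over maternally expressed members, with 12 and 7 positive. The median over all members was 0.02 in 2i (-0.19 without that library) and 0.17 in serum, where the medians over all genes tested were 0.01 and -0.00. The share of members with a positive change was 50% in 2i and 65.6% in serum, beside 51.2 and 49.8% of all genes. Of the 26 tested members at regions methylated on the maternal copy, 13 had a positive change in 2i and 16 in serum. The 5 tested members at regions methylated on the paternal copy, which belong to just the H19-Igf2 and Dlk1-Meg3 domains, had 2 positive changes in 2i and 5 in serum. Within the Kcnq1ot1 domain, 2 of 6 tested members had a positive change in 2i and 1 in serum. Members of a domain share control regions, so these counts are not of independent genes.

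A further list of 44 imprinted genes held 38 with a row and 26 tested, and none of these passed with limma in either medium. In 2i 1 and in serum 4 had an unadjusted p under 0.05, beside 7.37% of all genes in 2i and 5.09% in serum, and voom called 0 in each. Herc3, a HECT ubiquitin ligase gene with Nap1l5 in an intron, passed in the mean of both media, 1 of 26 beside 1.89% of all genes. It had 590, 595 and 581 normalised reads in 2i shSetdb1 and 225, 343 and 228 in 2i shScr, and 402, 500 and 330 in serum shSetdb1 against 199.7, 161 and 257 in serum shScr. The groups did not overlap in either medium, and the mean change was 0.97 (SE 0.20, limma adjusted p = 0.0130), losing the call without serum shSetdb1 replicate 2 (adjusted p = 0.0533, in a range of 0.00537 to 0.0533 over 22 alternatives). Nap1l5, a nucleosome assembly protein-like retrogene, had 0.769, 14.2 and 47.0 in 2i shSetdb1 and 2.89, 6.21 and 22.3 in 2i shScr, with 4 reads in all in serum shSetdb1 and 0 in serum shScr.

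A list of 25 factors that act on imprints or on DNA methylation, Tet1 and Tet2 among them, was tested in full. For the knockdown 0 passed with limma in either medium, and voom called 0. Of the 25, 4 in 2i and 5 in serum had an unadjusted p under 0.05, beside 7.37 and 5.09% of all genes. In the mean of both media 2 rose, beside 1.89% of all genes called in either direction. Dppa3, a maternal factor that protects imprints in the zygote, had 2034, 3171 and 9966 normalised reads in 2i shSetdb1 and 147, 251 and 2930 in 2i shScr. It had 405, 1850 and 1755 in serum shSetdb1 and 42.3, 164 and 93.0 in serum shScr. Its mean change was 3.02 (SE 0.61, limma adjusted p = 0.0124). Atf7ip, a partner that stabilises SETDB1, had 1662, 792 and 791 in 2i shSetdb1 against 287, 666 and 183 in 2i shScr, and 2492, 2335 and 788 in serum shSetdb1 against 911, 533 and 463 in serum shScr. Its mean change of 1.45 (SE 0.34, limma adjusted p = 0.0401) kept the call in 8 of 22 alternatives, with adjusted p from 0.00176 to 0.138. It was lost on leaving out any 1 library other than serum shScr replicate 1, serum shSetdb1 replicate 3 or 2i shScr replicate 2. For Zfp57 and Trim28, which bring SETDB1 to imprints, the mean changes were -0.32 (SE 0.29) and -0.22 (SE 0.31), with limma adjusted p of 0.926 and 0.962. Dnmt3l, a cofactor of the germline methyltransferase, had a mean change of 0.56 (SE 0.73, limma adjusted p = 0.960).

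Between media, 2 imprinted genes passed in knockdown and 3 in control cells. Between the control groups, 2i against serum, Cdkn1c and Phlda2 of the Kcnq1ot1 domain fell and Plagl1 rose, 3 of 32 members (9.38%), beside 3.62% of all genes (1.73% higher and 1.88% lower). Between the knockdown groups Cdkn1c and Phlda2 fell, 2 of 32 (6.25%), beside 3.75%. Groups did not overlap for 15 of 32 members in control cells (4 higher, 11 lower in 2i), beside 23.8% of all genes (11% higher, 12.8% lower), and for 10 of 32 in knockdown cells (3 higher, 7 lower), beside 19.1% (8.99% higher, 10.1% lower). The medians over members were -0.60 in knockdown and -0.27 in control cells, against -0.05 over all genes in each. Members known as maternally expressed had medians of -0.84 in knockdown and -0.38 in control cells. Those known as paternally expressed had -0.29 in knockdown and -0.09 in control cells. The 2 comparisons use different libraries from each other, but each shares groups with the knockdown comparisons.

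**Figure D4:**
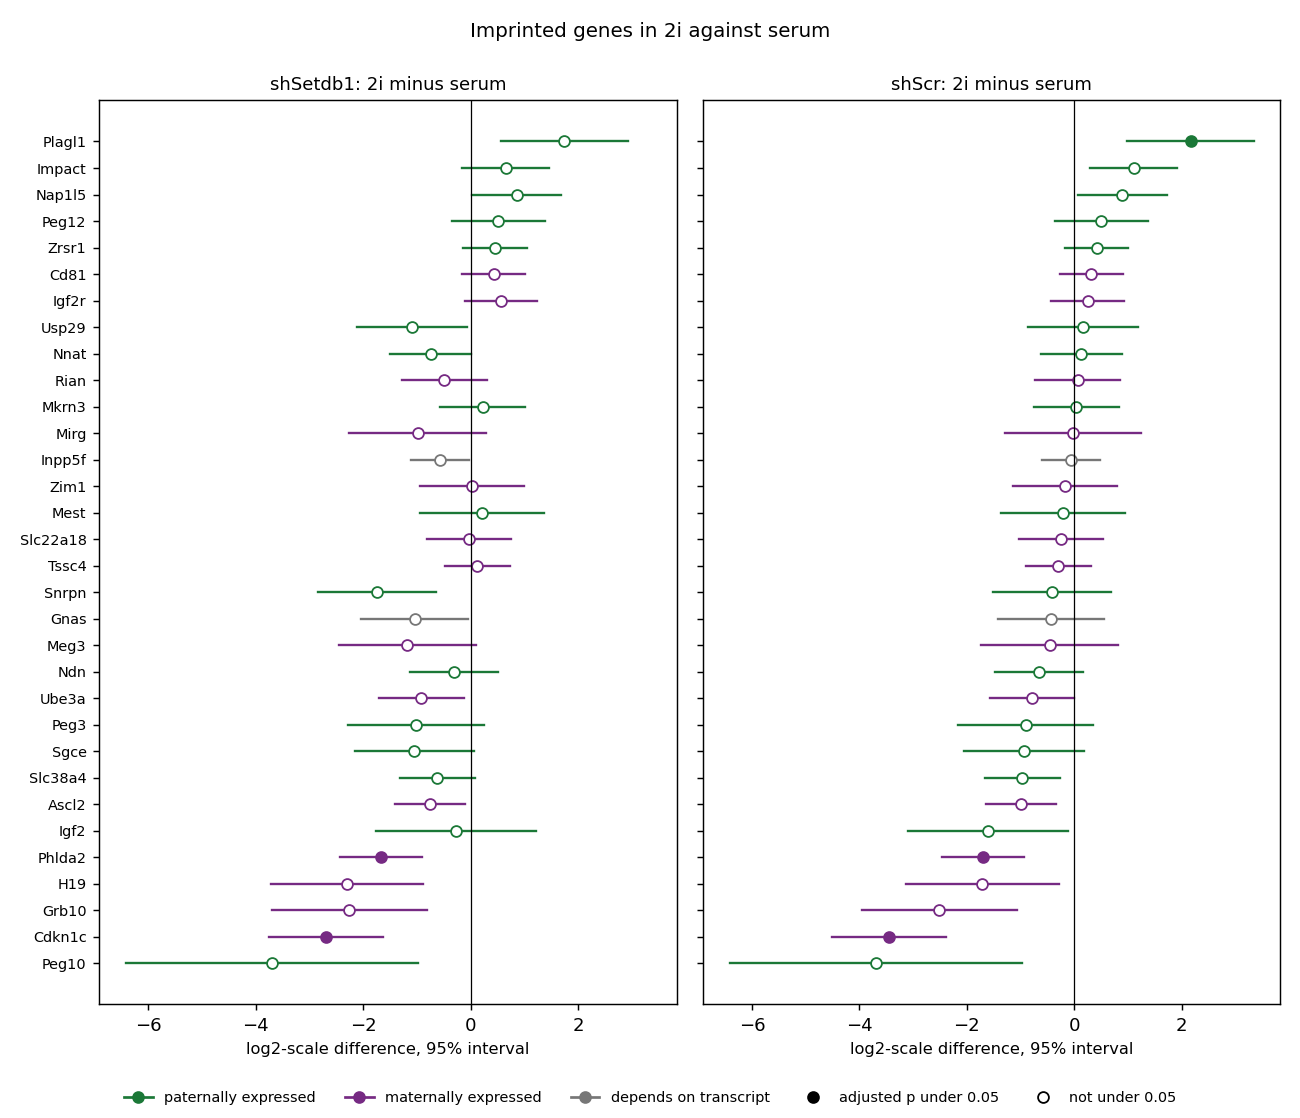
Difference between 2i and serum for the 32 tested members, in shSetdb1 cells on the left and shScr cells on the right. The x axis is 2i minus serum on the deposited log2 scale with its 95% interval, genes are ordered by the difference in shScr cells, and filled points have an adjusted p under 0.05: Cdkn1c and Phlda2 in both panels, at -2.70 and -1.67 (shSetdb1) and -3.44 and -1.70 (shScr), and Plagl1 at 2.17 in shScr cells.

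Cdkn1c, which encodes an inhibitor of cyclin-dependent kinases, had 52.0, 20.7 and 17.6 normalised reads in 2i shScr and 725, 999 and 382 in serum shScr. That is 23.3-fold lower in 2i, with a log2-scale difference of -3.44 (SE 0.50, limma adjusted p = 0.00224) that passed in 17 of 17 alternatives (adjusted p 8.83e-06 to 0.0182). In knockdown cells it had 115, 23.4 and 22.1 in 2i shSetdb1 and 713, 703 and 214 in serum shSetdb1, 10.1-fold lower, by -2.70 (SE 0.50, limma adjusted p = 0.00767). No 2i library of Cdkn1c reached any serum library. The fold was 36.7 without 2i shScr replicate 1 and, in knockdown cells, 23.9 without 2i shSetdb1 replicate 1. The knockdown call ended without serum shSetdb1 replicate 2 (adjusted p = 0.0602) and with voom (0.0645), within a range of 4.53e-05 to 0.0645. Phlda2 had 88.8, 28.3 and 29.3 in 2i shScr and 186, 317 and 188 in serum shScr, 4.72-fold lower, by -1.70 (SE 0.36, limma adjusted p = 0.0163). In knockdown cells it had 20.8, 15.2 and 27.7 in 2i shSetdb1 and 89.0, 172 and 165 in serum shSetdb1, 6.69-fold lower, by -1.67 (SE 0.36, limma adjusted p = 0.0177). The highest 2i shSetdb1 library was far below the lowest serum shSetdb1 library, whereas 2i shScr replicate 1 came closer to serum, and without it the control fold was 7.995. In control cells the Phlda2 call ended without serum shScr replicate 2, 2i shScr replicate 2 or 2i shScr replicate 3 (adjusted p = 0.0893, 0.0765 and 0.0871, range 0.00273 to 0.0893). In knockdown cells it ended without serum shSetdb1 replicate 2 or 2i shSetdb1 replicate 2 (0.110 and 0.0677), with voom (0.0680) and with the knockdown libraries alone (0.0529), within a range of 0.00275 to 0.110.

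Other members of the Kcnq1ot1 domain did not pass in either medium comparison. Ascl2 had 2.89, 2.76 and 0 normalised reads in 2i shScr and 17.4, 17.8 and 25.7 in serum shScr, and 17.7, 2.03 and 8.30 in 2i shSetdb1 against 33.5, 26.1 and 32.6 in serum shSetdb1. Its groups did not overlap in either case, and the differences were -0.99 (SE 0.31, limma adjusted p = 0.0897) in control and -0.76 (SE 0.31, adjusted p = 0.193) in knockdown cells. The tetraspanin gene Cd81, imprinted in placenta, had 2250, 2415 and 2500 in 2i shScr and 2490, 1538 and 1805 in serum shScr, and 2056, 2133 and 2619 in 2i shSetdb1 against 1976, 1259 and 1854 in serum shSetdb1. Cd81 differed by 0.32 (SE 0.27) in control and 0.43 (SE 0.27) in knockdown cells. Tssc4 had 120, 111 and 102 in 2i shScr against 130, 190 and 121 in serum shScr. Slc22a18 had 5.78, 15.9 and 0 in 2i shScr against 19.5, 3.55 and 6.42 in serum shScr. The potassium channel gene Kcnq1 had 4 reads in all in 2i shSetdb1, 6 in serum shSetdb1 and 0 in both shScr groups.

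Plagl1 had 22.4, 428 and 230 normalised reads in 2i shScr and 9.77, 4.44 and 21.4 in serum shScr, and every 2i library was above every serum library. The mean was 19.1-fold higher, with a log2-scale difference of 2.17 (SE 0.56, limma adjusted p = 0.0435). In knockdown cells Plagl1 had 89.2, 92.4 and 66.4 in 2i shSetdb1 and 9.89, 7.58 and 1.92 in serum shSetdb1, 12.8-fold higher, by 1.74 (SE 0.56, limma adjusted p = 0.102). Of the fits with 1 library left out, the call in control cells held only without 2i shScr replicate 1, the lowest of its group. Without any other 1 of the 6 libraries the adjusted p was 0.0648 to 0.184, and it was 0.0770 with no filter, 0.0564 on log2 of reads plus 1, 0.201 with voom and 0.106 with the control libraries alone. Over all 17 alternatives it ranged from 0.00246 to 0.201, and 8 passed. The fold was 10.6 without 2i shScr replicate 2 and 31.9 without serum shScr replicate 3.

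**Figure D5:**
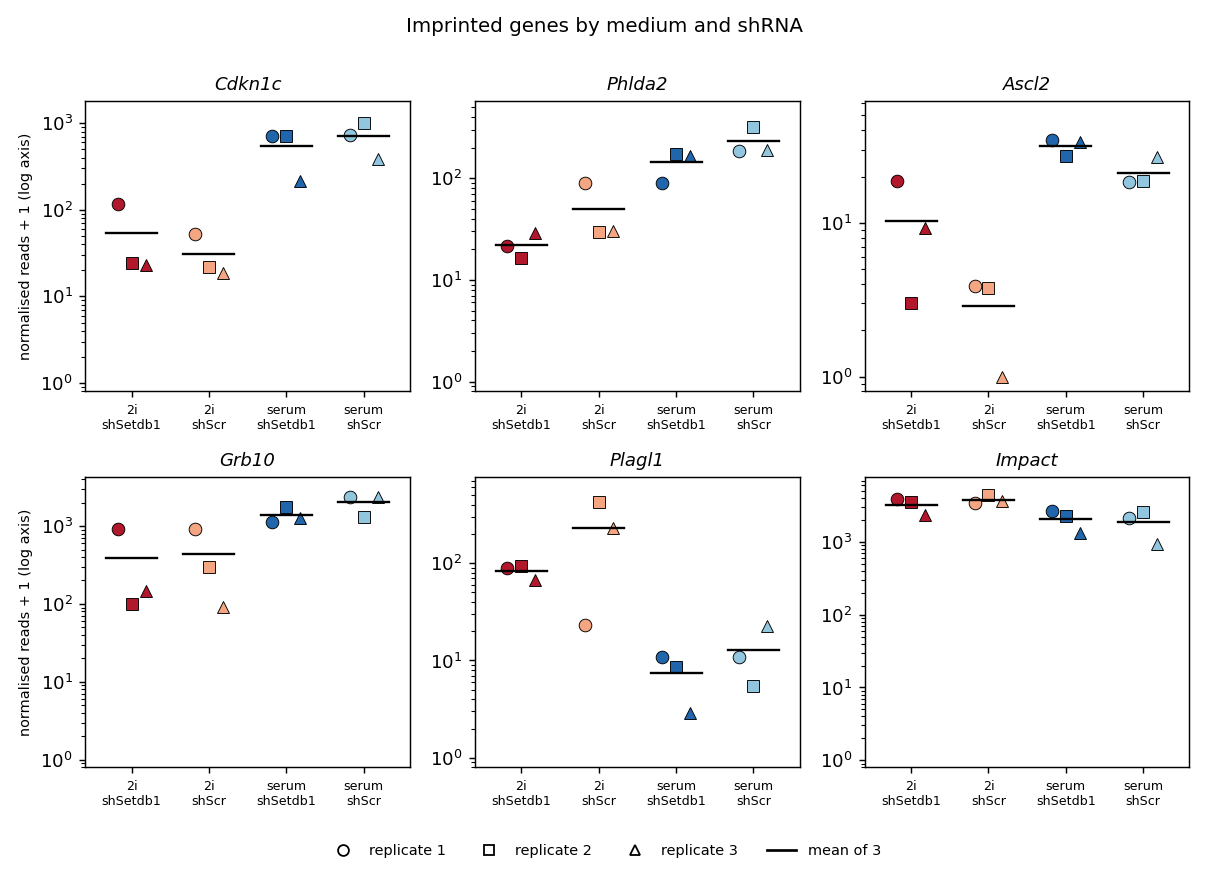
Normalised reads plus 1 (log axis) of 6 members with large differences between media in each of the 12 libraries, 1 marker shape per replicate number, lines at the mean of 3. Cdkn1c has at most 115 reads in any 2i library and at least 214 in any serum library.

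Grb10, H19, Igf2 and Peg10 were also lower in 2i control libraries without passing. Grb10 had 922, 297 and 89.2 normalised reads in 2i shScr and 2330, 1322 and 2382 in serum shScr, 4.61-fold lower, by -2.51 (SE 0.68, limma adjusted p = 0.0536). Without 2i shScr replicate 1 the difference of Grb10 was -3.25 and the fold 10.4 (adjusted p = 0.0191, range 0.000336 to 0.252). Peg10 had 160, 221 and 7.04 in 2i shScr and 2375, 1800 and 943 in serum shScr, 13.2-fold lower, by -3.69 (SE 1.28, limma adjusted p = 0.129). The Peg10 fold was 20.4 without 2i shScr replicate 2 and 8.94 without 2i shScr replicate 3. H19 had 18.8, 6.21 and 0 in 2i shScr against 69.5, 111 and 53.5 in serum shScr (-1.71, SE 0.67, limma adjusted p = 0.187). Igf2 had 10.1, 0 and 0 in 2i shScr against 45.6, 55.1 and 37.4 in serum shScr (-1.61, SE 0.70, limma adjusted p = 0.243). Groups of these 4 genes did not overlap. In knockdown cells the calls in such comparisons changed on leaving out 2i shSetdb1 replicate 1. With it, H19 differed by -2.30, Grb10 by -2.26, Peg10 by -3.70 and Igf2 by -0.27 between 2i and serum, and none passed. Without it, 11 of 32 members passed, beside 10.5% of all genes. They were 10 lower, beside 5.14%, and 1 higher, beside 5.36%. The 10 were Cdkn1c, Phlda2, Grb10, H19, Igf2, Peg10, Peg3, Snrpn, Ube3a and Gnas, and the 1 was Nap1l5. Peg10 then differed by -5.79 (SE 0.77, limma adjusted p = 0.000493), H19 by -3.39 (SE 0.41, adjusted p = 0.000281) and Igf2 by -1.48 (SE 0.38, adjusted p = 0.0229).

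Members higher in 2i were few. Impact, a regulator of the kinase GCN2, had 3409, 4385 and 3702 normalised reads in 2i shScr and 2173, 2623 and 928 in serum shScr, by 1.11 (SE 0.38, limma adjusted p = 0.124), with no overlap. In knockdown cells Impact had 3858, 3559 and 2370 in 2i shSetdb1 and 2675, 2295 and 1342 in serum shSetdb1, by 0.65 (SE 0.38), with overlap. Nap1l5, at 2.89, 6.21 and 22.3 in 2i shScr with 0 reads in serum shScr, was at least 10.4-fold higher against a floor of 3 reads over the group (limma adjusted p = 0.249). Zrsr1, a splicing factor retrogene within Commd1, had 306, 364 and 256 in 2i shScr and 187, 254 and 221 in serum shScr, by 0.42 (SE 0.28, adjusted p = 0.494). Peg12, a GSK3-binding protein gene of the Snrpn domain, had 23.1, 103 and 25.8 in 2i shScr against 19.5, 10.7 and 39.6 in serum shScr.

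Toward the lower side in 2i were also Slc38a4, an amino acid transporter gene, and Ube3a, a ubiquitin ligase gene that is maternally expressed in neurons. Slc38a4 had 1512, 1670 and 2766 normalised reads in 2i shScr and 3131, 3753 and 4618 in serum shScr (-0.97, SE 0.33, limma adjusted p = 0.118). Ube3a had 2322, 1830 and 1934 in 2i shScr and 4684, 3745 and 2483 in serum shScr (-0.79, SE 0.37, limma adjusted p = 0.287). Snrpn had 383, 574 and 111 in 2i shSetdb1 and 1010, 2028 and 638 in serum shSetdb1 (-1.74, SE 0.52, limma adjusted p = 0.0768), with no overlap. Mirg differed by -0.99 (SE 0.60) and Usp29 by -1.10 (SE 0.48, limma adjusted p = 0.236) in knockdown cells, while Usp29 differed by 0.16 (SE 0.48) in control cells. Igf2r, the receptor that clears IGF2, had 2782, 2981 and 2445 in 2i shSetdb1 and 2219, 1914 and 1458 in serum shSetdb1, with no overlap and a difference of 0.56 (SE 0.32). The other 11 members not described above were Ndn, Sgce, Mest, Meg3, Rian, Nnat, Gnas, Mkrn3, Inpp5f, Peg3 and Zim1. They differed by -1.18 to 0.22 in knockdown and -0.94 to 0.13 in control cells, and none passed in the main fit. Magel2, a MAGE family gene of the Snrpn domain, had 0 reads in 2i libraries of both shRNAs, 67 in serum shSetdb1 and 28 in serum shScr. Rasgrf1, an exchange factor for Ras, had 0 reads in all 12 libraries.

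Of the 26 further imprinted genes tested, 0 passed with limma for 2i against serum in either kind of cell, while 7 in knockdown and 2 in control cells had an unadjusted p under 0.05, beside 18.5 and 17.3% of all genes, and voom called 0. Of the 25 imprint factors, only Dnmt3a passed, in both kinds of cell, 1 of 25 beside 3.75% of all genes in knockdown and 3.62% in control cells. This methyltransferase gene had 611, 194 and 252 normalised reads in 2i shSetdb1 and 3604, 3358 and 1329 in serum shSetdb1, 7.85-fold lower (-2.85, SE 0.46, limma adjusted p = 0.00387). Without 2i shSetdb1 replicate 1 it was 12.4-fold lower. It had 293, 281 and 114 in 2i shScr and 1335, 1473 and 780 in serum shScr, 5.21-fold lower (-2.23, SE 0.46, limma adjusted p = 0.0144). The control call ended without serum shScr replicate 1 or 2 or 2i shScr replicate 3 (adjusted p = 0.0596, 0.0766 and 0.0870, range 0.000235 to 0.0870). Dnmt3l differed by -1.84 (SE 1.03, limma adjusted p = 0.394) in control cells, with 1154, 830 and 64.5 in 2i shScr and 2463, 3320 and 543 in serum shScr.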

How the data were processed

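RNA was measured by sequencing in 12 libraries, 3 in each of 4 groups. Per the submitters' processing notes, reads were trimmed with Trim Galore 0.3.3, aligned to mm9 with TopHat2 2.0.9 and normalised with DESeq2. Of the counting tool, the annotation and the use of strand nothing is stated in the labels, so genes that overlap or start back to back (Usp29 and Peg3, Nap1l5 and Herc3, Zrsr1 and Commd1, Igf2r and its antisense RNA) may share reads. The deposited values are on a variance-stabilised log2 scale, which compresses changes of low genes. Inverting that scale gave whole reads for 100% of values (within 0.01 of a whole read), and these reads, divided by the size factors of the authors, are the normalised reads printed. They are not scaled for gene length.

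Genes whose mean lay at least 0.5 above the lowest deposited value were tested (14487 of 26061). One model with a mean per group (8 residual degrees of freedom) was fitted to the deposited log2 values with limma 3.58.1 in R 4.3.3, with a mean-variance trend, two-sided tests and Benjamini-Hochberg adjustment over all genes tested. A 95% interval or SE belongs to the log2-scale change, and a fold is a ratio of mean normalised reads, with a floor of 3 reads over a group at 0. The fit was tested on simulated data in which only genes with many reads were changed, at 1 fixed spread. That test does not cover members with few reads or libraries that differ in composition. Alternatives were other filters, median centring, quantile normalisation, log2 of reads plus 1 or 8, voom with TMM scaling on the reads, the compared libraries alone, no trend, replicate blocks, and leaving out each library.

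The replicate numbers in the labels were checked as pairs by the correlation of deviations from group means. In serum same-numbered libraries correlated at 0.582, 0.234 and 0.510, so the numbers were used as pairs there. The labels state no pairing, and whether paired cultures or shared library composition gave these correlations was not tested. A fit with replicate number as a block within medium is given beside serum results whose counts it moves. Values were described library by library for members that passed, for the 5 largest positive and negative changes in each knockdown comparison and in 2i against serum in control cells, and for the Peg3, H19-Igf2, Dlk1-Meg3 and Kcnq1ot1 domains. The members and lists were chosen with earlier results of these data known. Depth was 4821181 to 15509401 gene reads per library, and the floor of 3 reads covers counting error only.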

Additional observations from a re-analysis of the deposited data

How the results depend on the processing

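In serum the count of members passing for the knockdown, 1, was 0 with no filter on low values, on log2 of reads plus 1, with voom and with the compared libraries alone, and 0 to 1 with 1 library left out. In 2i it was 1 (Usp29, limma adjusted p = 0.0376, range 0.0376 to 1.00) in place of 0 with a replicate block within medium (beside 2.93% of genes), where same-numbered libraries correlated at 0.456, 0.0575 and 0.524. For 2i against serum in control cells, 3 members became 8 with a replicate block (beside 9.33% of genes) and 10 with a block within medium (12%). The count was 1 to 4 with 1 library left out. With the compared libraries alone it was 5, but the share over all genes is not given here, so that count shows no trait of the members. In knockdown cells 2 became 0 with voom, 9 with a replicate block (10.9%) and 11 with a block within medium (13.9%), and 0 to 11 with 1 library left out. Across media the replicate numbers do not pair the libraries, with same-number correlations down to -0.177 in control cells. Among all genes, the calls were 94 in serum, 171 with a replicate block and 211 with a block within medium, and 37 to 69 with 1 library left out. In 2i they were 184, with 108 by voom, 88 from the compared libraries alone, 321 and 425 with the blocks and 99 to 253 on leaving 1 out. The mean of both media had 274, with 494 and 630 under the blocks, and the difference had 0, with 2 under the block within medium. Between media there were 543 in knockdown cells, with 361 on log2 plus 1, 250 by voom, 195 from those libraries alone, 1583 and 2016 with the blocks and 144 to 1522 on leaving 1 out. Control cells had 524, with 1351 and 1741 with the blocks and 171 to 466 on leaving 1 out. On leaving out 1 library signs turned for knockdown changes of Meg3 in 2i (-0.89 to 0.30), H19 in 2i (-0.68 to 0.96), Peg3 in serum (-0.13 to 0.76) and Peg3 in 2i (-0.63 to 0.51), and for 2i against serum of Igf2 in knockdown cells (-1.48 to 0.39) and Usp29 in control cells (-0.28 to 0.48). Without 2i shSetdb1 replicate 1 the 2i knockdown changes of Cdkn1c (-0.14), Peg10 (-1.95), Sgce (-0.25) and Peg12 (0.04) turned too. The cause was not tested. Depth limits members near 0 reads, such as Zim1, Nap1l5, Slc22a18 and Ascl2.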

Other observations

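Imprinted genes were detected in similar numbers in all groups. The mean reached 10 normalised reads for 28 members in 2i shSetdb1, 25 in 2i shScr, 29 in serum shSetdb1 and 28 in serum shScr, and 5 members stayed below 10 in every group. Markers of other fates were also counted. The 7 mesoderm markers summed to 9.14 to 79.9 normalised reads in 2i shSetdb1, 124 to 277 in 2i shScr, 10.6 to 37.3 in serum shSetdb1 and 17.1 to 81.7 in serum shScr. The 6 listed neural markers summed to 600 to 877 in 2i shSetdb1, 549 to 1045 in 2i shScr, 487 to 1062 in serum shSetdb1 and 737 to 962 in serum shScr. The 10 pluripotent markers summed to 52630 to 65940 in 2i shSetdb1, 59140 to 65770 in 2i shScr, 34380 to 62730 in serum shSetdb1 and 51450 to 64610 in serum shScr.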
